A study of Mus musculus with 12 samples.

Results

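The genes described here are 10 genes of sphingolipid metabolism and of sphingosine-1-phosphate (S1P) signalling, taken by symbol from the 25239 genes of a count table of sorted mouse skin fibroblasts. They are the sphingomyelinase genes Smpd3 and Smpd2, the sphingomyelin synthase genes Sgms1 and Sgms2, the sphingosine kinase genes Sphk1 and Sphk2, the S1P lyase gene Sgpl1 and the S1P receptor genes S1pr1, S1pr2 and S1pr3. Smpd3 was chosen for its fall after wounding, so its values are a description and carry no test. All 10 genes passed the filter on low counts, which left 14901 genes to be tested.

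The cells were live SCA1+ CD45- CD31- cells sorted from back skin of wild type male C57BL/6 mice aged 8 weeks. The 4 groups, of 3 mice and 3 libraries each, were intact skin without a wound (NW) and full-thickness wounds made with a 4 mm punch and collected after 16 h, 1.5 d or 3 d. The mice of all groups shared sex, strain and genotype, and no group carried a drug or transgene, per the labels. SCA1 marks only some of the fibroblasts of skin, and no antibody against epithelial cells was part of the sort, so cells of other types could pass the gate.

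Sphingomyelin is made from ceramide by sphingomyelin synthases and is broken down again to ceramide by sphingomyelinases. Ceramidases release sphingosine from ceramide, sphingosine kinases phosphorylate it to S1P, and S1P either leaves the pathway through S1P lyase, returns to sphingosine through phosphatases, or is exported. Outside the cell S1P acts through G protein-coupled receptors, which in connective tissue are known for effects on migration, contraction and survival.

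Library totals ranged from 26389453 to 43493475 counts. Levels are given as CPM, that is counts divided by the library total in units of 1e6 counts, after scaling by the trimmed mean of M values (TMM); levels of different genes are compared only after division by exon length in kilobases (FPKM). Log2 changes are those of the edgeR quasi-likelihood fit, and a gene was said to rise or fall at an adjusted p under 0.05. In a bulk library, fewer cells of a type and less RNA per cell cannot be told apart. The 6 fibroblast and gate markers were counted in every group and summed to 6.63 to 12.9% of counts in NW, 2.77 to 6.20% at 16 h, 3.37 to 5.39% at 1.5 d and 6.27 to 10.2% at 3 d. Of these 6, 1 rose and 2 fell at 16 h, 2 rose and 1 fell at 1.5 d, and 1 rose at 3 d. Pdgfra rose from 149 CPM to 747, 790.4 and 425 CPM, and Ly6a, which encodes SCA1, rose at 1.5 d from 1053 to 2020 CPM. Col1a2 fell from 49031 CPM to 14162 CPM at 16 h and 16201 CPM at 1.5 d, and Lum fell at 16 h from 1893 to 758 CPM. The part of these markers in the results below was not tested. All 16 keratinocyte markers that were checked were counted in every group, and together they took 2.00 to 4.01% of the counts in the NW libraries, against 0.912 to 1.49% (16 h), 0.454 to 0.796% (1.5 d) and 0.0879 to 1.44% (3 d) in the wound libraries. Pericyte and smooth muscle markers took at most 0.00963%, endothelial markers at most 0.0114%, macrophage markers at most 0.0115% and neutrophil markers at most 0.0024% of any library. Of 5 neutrophil markers tested 4, 3 and 1 rose in order of time. Together they took at most 5.47e-05% in NW and 8.58e-04 to 0.0024% at 16 h. Of 8 macrophage markers tested 3 rose at each time and 1 fell at 16 h. Of 8 pericyte and smooth muscle markers tested 3, 2 and 0 fell, and of 7 endothelial markers 2, 1 and 1 fell. Adipocyte markers summed to 0.00447 to 0.0120% in NW and at most 7.84e-04% in wounds, and of 5 tested 5, 4 and 4 fell in order of time. Schwann cell and melanocyte markers summed to 0.00658 to 0.00779% in NW and at most 0.00233% in wounds, and of 4 tested 2, 2 and 1 fell. In order of time, 50%, 50% and 16.7% of gate markers and 80%, 60% and 20% of neutrophil markers were called. So were 50%, 37.5% and 37.5% of macrophage, 37.5%, 25% and 0% of pericyte, and 28.6%, 14.3% and 14.3% of endothelial markers. The shares were 100%, 80% and 80% for adipocyte and 50%, 50% and 25% for Schwann cell and melanocyte markers. Of all genes tested, 24.7%, 24.5% and 21.1% were called.

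Promoter sequence is shown for S1pr3, the receptor gene that rose at every wound time, for S1pr2, the receptor gene that was not called at any, and for Sgpl1, which encodes the enzyme that removes S1P irreversibly. The windows are the 250 bases before each RefSeq gene start on GRCm38.p6, 5′ to 3′ on the gene's strand: S1pr3 at chr13:51408368-51408617 (plus strand), S1pr2 at chr9:20976794-20977043 (minus strand) and Sgpl1 at chr10:61147685-61147934 (minus strand). Capitals mark every match, on either strand, of the words GGGCGG (a GC box), TGANTCA (the word bound by AP-1), ACGTG (the core of the hypoxia response element) and GGAATG (a word bound by TEAD factors).
S1pr3: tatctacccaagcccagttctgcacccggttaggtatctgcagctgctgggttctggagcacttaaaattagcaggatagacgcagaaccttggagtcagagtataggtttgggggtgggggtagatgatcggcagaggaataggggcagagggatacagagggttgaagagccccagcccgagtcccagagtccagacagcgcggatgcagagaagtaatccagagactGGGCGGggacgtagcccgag
S1pr2: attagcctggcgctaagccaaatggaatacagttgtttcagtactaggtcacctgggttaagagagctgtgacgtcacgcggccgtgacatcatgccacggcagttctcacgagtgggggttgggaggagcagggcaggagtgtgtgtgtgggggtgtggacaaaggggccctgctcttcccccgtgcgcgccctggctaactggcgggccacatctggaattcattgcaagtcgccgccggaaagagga
Sgpl1: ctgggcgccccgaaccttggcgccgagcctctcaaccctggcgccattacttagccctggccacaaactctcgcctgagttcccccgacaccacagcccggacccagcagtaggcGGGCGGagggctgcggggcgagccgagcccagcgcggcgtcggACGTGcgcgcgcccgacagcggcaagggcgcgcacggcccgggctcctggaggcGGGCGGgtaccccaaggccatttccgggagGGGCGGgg
The S1pr3 window held 1 GGGCGG, the Sgpl1 window held 3 GGGCGG and 1 ACGTG, and the S1pr2 window held none of the 4 words. Of 32851 windows of this length in the RefSeq table, 32.7% held GGGCGG, 16.6% ACGTG, 12.6% GGAATG and 6.75% TGANTCA. GC content was 56.4% for S1pr3, 59.2% for S1pr2 and 74.8% for Sgpl1, against a median of 52.4% over all windows. A match is a description of the letters and not a binding site.

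Of the receptors, S1pr3 changed most. Its gene lies on chr13 from 51408618 to 51422797 (mm10, plus strand, 2 exons), and the receptor couples to several classes of G protein. The unwounded libraries stood at 9.42, 4.67 and 8.69 CPM. The 16 h libraries stood at 293, 344 and 183 CPM, the 1.5 d libraries at 437, 265 and 482 CPM, and the 3 d libraries at 356, 291 and 193 CPM. Every wound library was above every NW library, and the lowest of the 9 wound libraries was 19.5 times the highest of the 3 NW libraries. S1pr3 rose 36.0-fold at 16 h (log2 5.17, SE 0.399, adjusted p = 1.15e-05), 52.0-fold at 1.5 d (log2 5.70, SE 0.409, adjusted p = 7.27e-06) and 36.9-fold at 3 d (log2 5.21, SE 0.399, adjusted p = 8.12e-06). The 3 wound groups overlapped, and no difference between them passed the test (adjusted p of 0.454, 0.819 and 0.965). The share of keratinocyte markers was lower in every wound library than in every NW library, and with that share in the fit the log2 rises of S1pr3 were 4.86, 5.16 and 4.57 (adjusted p of 2.35e-05, 1.06e-04 and 1.05e-04). Pericytes and smooth muscle cells are also known to carry this receptor: the 9 markers of those cells summed to 0.00516 to 0.00963% of counts in NW and, in order of time, to 0.00159 to 0.00356%, 0.00178 to 0.00304% and 0.00387 to 0.00747% in the wounds. At 16 h 2 of the 9, Myh11 and Higd1b, had no count and the others were counted; the part of such cells in the S1pr3 values was not tested.

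S1pr2, which signals mainly through G12 and G13 proteins, showed no change that passed the test. Its gene lies on chr9 from 20965952 to 20976793 (minus strand, 2 exons). The NW libraries stood at 91.7, 52.4 and 58.5 CPM, the 16 h libraries at 65.6, 54.8 and 47.9 CPM, the 1.5 d libraries at 105, 65.6 and 81.2 CPM, and the 3 d libraries at 61.5, 79.2 and 84.3 CPM. All 3 wound groups overlapped NW. The 95% intervals of the log2 change ran from -0.82 to 0.29 at 16 h, from -0.24 to 0.87 at 1.5 d and from -0.40 to 0.70 at 3 d, all within 1 log2 unit of 0.

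S1pr1, the Gi-coupled receptor best known from endothelium and lymphocytes, was low. Its gene lies on chr3 from 115710433 to 115715055 (minus strand, 2 exons). The NW libraries stood at 0.53, 1.61 and 1.82 CPM, from 14, 49 and 55 counts. The wound libraries stood at 9.64, 9.07 and 0 CPM at 16 h, at 13.4, 3.99 and 16.2 CPM at 1.5 d, and at 24.0, 7.83 and 22.7 CPM at 3 d. Replicate 3 at 16 h had no count of S1pr1, which allows up to 0.101 CPM (3 counts), whereas replicates 1 and 2 of that group had 289 and 301 counts. The 1.5 d and 3 d libraries all lay above the NW libraries. S1pr1 rose at 3 d (log2 3.77, SE 1.18, adjusted p = 0.0379), and the log2 changes of 2.23 at 16 h and 3.07 at 1.5 d did not pass the test (adjusted p of 0.165 and 0.0681). The call at 3 d was lost without any 1 of NW replicates 1, 2 and 3 and 3 d replicates 1 and 3 (adjusted p of 0.0713 to 0.105), and with no filter, limma-voom, the replicate block or the keratinocyte share in the fit (adjusted p of 0.0795 to 0.247). Without 16 h replicate 3 the gene also passed at 16 h (adjusted p = 0.0106) and at 1.5 d (adjusted p = 0.0044). The sort excluded CD31+ cells, and the 8 endothelial markers summed to 0.00722 to 0.0114% of counts in NW and to at most 0.00495% in the wound libraries; the part of such cells in the S1pr1 values was not tested.

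Per exon length, the receptors changed their order. In NW, S1pr2 made up 83.4 ± 4.90% (SD, n = 3) of the summed FPKM of the 5 S1P receptor genes, S1pr5 9.04 ± 3.32%, S1pr3 5.90 ± 1.37% and S1pr1 1.71 ± 1.07%. In wounds S1pr3 made up 72.6 ± 3.95%, 71.9 ± 3.23% and 64.4 ± 10.03% in order of time, and S1pr2 24.6 ± 4.79%, 24.9 ± 4.01% and 28.7 ± 8.51%. The ratio of S1pr3 to S1pr2 FPKM was 0.056 to 0.0932 in the NW libraries and 1.44 to 3.94 in the wound libraries. The family summed to 28.6 ± 7.39 FPKM in NW and to 83.5 ± 21.9, 121.9 ± 32.6 and 95.5 ± 14.2 FPKM in the wound groups. S1pr5 fell at 1.5 d from 6.08 to 0.9746 CPM (log2 -2.63, SE 0.885, adjusted p = 0.0453), a call lost without each of 9 libraries in turn (all of NW and 1.5 d, 16 h replicates 1 and 2, and 3 d replicate 3, adjusted p of 0.0564 to 0.133). Its log2 changes at 16 h and 3 d were of like size, -2.38 and -2.54, and did not pass the test. S1pr4 had 4 counts in 1 library (16 h replicate 3) and none in the other 11, and was not tested.

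**Figure D1:**
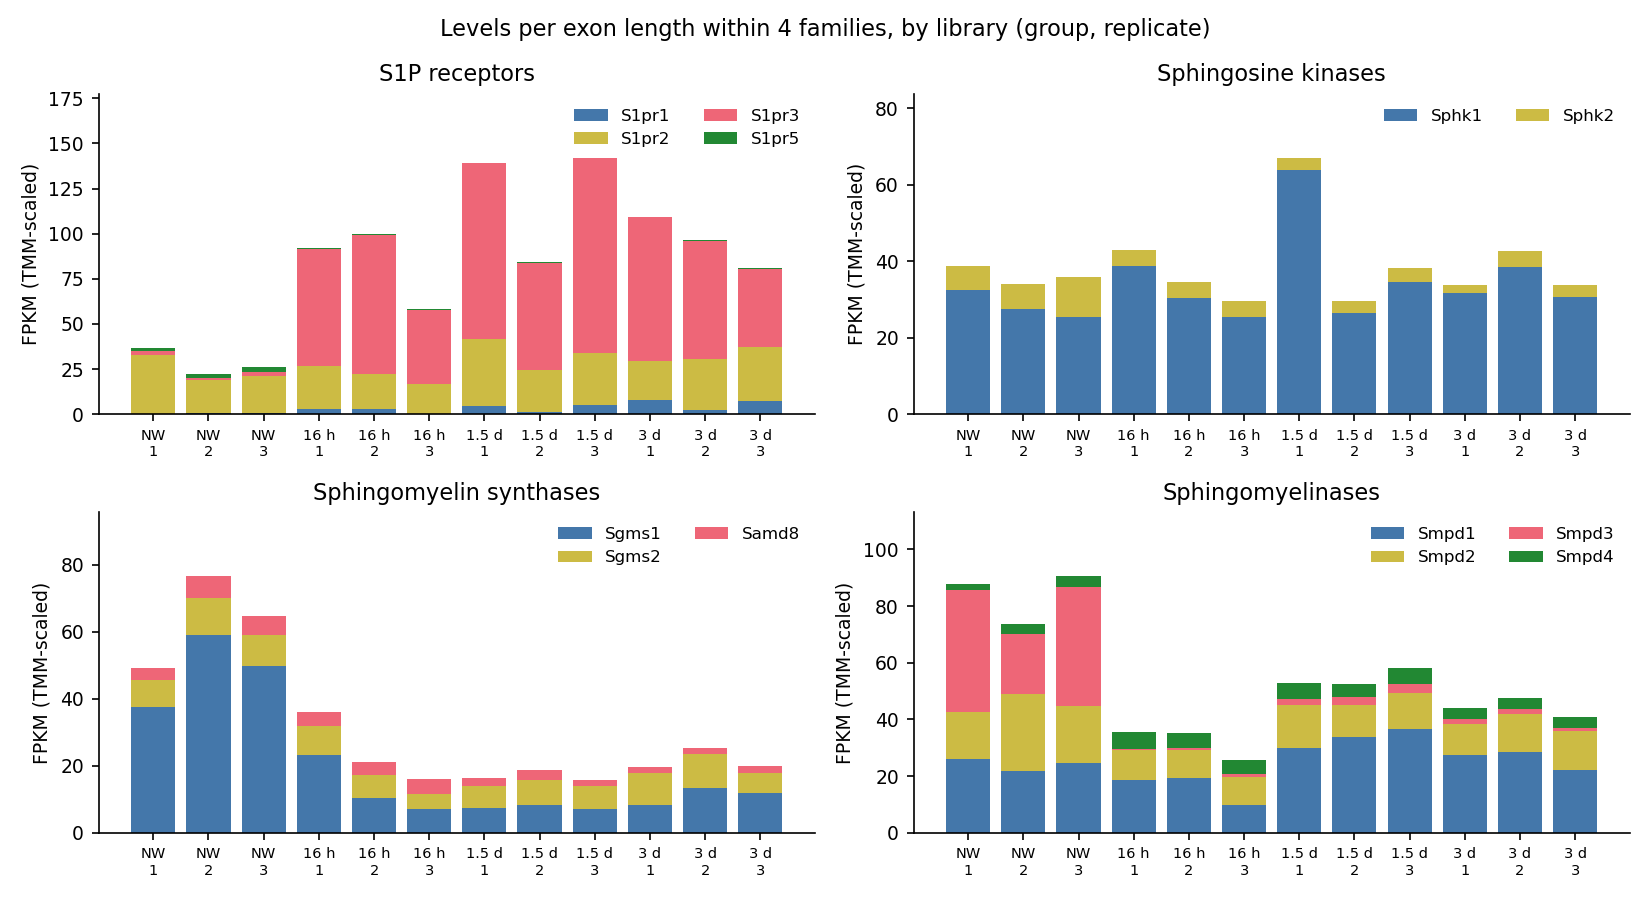
Levels of 4 gene families in each of the 12 libraries as stacked bars of TMM-scaled FPKM, labelled by group and replicate: S1P receptors, sphingosine kinases, sphingomyelin synthases with their relative Samd8, and sphingomyelinases. In the receptor panel S1pr2 fills most of each NW bar and S1pr3 most of each wound bar; in the sphingomyelinase panel Smpd3 is a wide band in NW (41.4% of the sum on average) and a thin one in wounds (2.18 to 5.02%).

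Of the sphingomyelinases, Smpd3 encodes neutral sphingomyelinase 2, a membrane enzyme that makes ceramide from sphingomyelin and is known for its part in the release of exosomes and in cartilage and bone matrix. Its gene lies on chr8 from 106252548 to 106337965 (minus strand, 9 exons). In NW the 3 libraries stood at 221, 108 and 215 CPM. The 16 h libraries stood at 1.20, 3.10 and 5.43 CPM, the 1.5 d libraries at 11.4, 14.01 and 16.9 CPM, and the 3 d libraries at 8.63, 9.90 and 5.28 CPM. The lowest NW library was 6.41 times the highest wound library. The fitted log2 changes against NW were -5.80 at 16 h, -3.69 at 1.5 d and -4.52 at 3 d, that is 55.8-fold, 12.9-fold and 22.9-fold lower.

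The wound libraries took part in the choice of Smpd3, so its differences between wound times are likewise given without a test. All 3 libraries of 1.5 d were above all 3 of 16 h, as was true in either direction for 23.4% of all genes tested. The fitted level at 1.5 d was 4.34-fold that at 16 h (log2 2.12), and at 3 d it was 2.44-fold that at 16 h (log2 1.29), with overlapping libraries. From 1.5 d to 3 d the log2 change was -0.83, and all 3 libraries of 3 d were below all 3 of 1.5 d. Of the 14901 genes tested, 988 were likewise lower without overlap in that comparison and 1032 were higher.

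Smpd2 encodes a neutral sphingomyelinase of the endoplasmic reticulum and lies on chr10 from 41487172 to 41490340 (minus strand, 10 exons). In unwounded skin the libraries stood at 26.9, 43.7 and 32.3 CPM, the 16 h libraries at 17.3, 16.1 and 16.3 CPM, the 1.5 d libraries at 24.2, 18.002 and 20.3 CPM, and the 3 d libraries at 17.2, 21.3 and 22.04 CPM. All 9 wound libraries were below all 3 NW libraries. Smpd2 fell by 1.05 on the log2 scale at 16 h (SE 0.242, adjusted p = 0.0072), by 0.72 at 1.5 d (SE 0.240, adjusted p = 0.0434) and by 0.77 at 3 d (SE 0.241, adjusted p = 0.0382). The call at 16 h was kept without each library. The call at 1.5 d was lost without each of 10 libraries (all but NW replicate 1 and 1.5 d replicate 1, adjusted p of 0.052 to 0.177), and the call at 3 d without each of 8 (NW replicates 2 and 3, 16 h replicates 1 and 2, 1.5 d replicate 3, and all of 3 d, adjusted p of 0.0515 to 0.163). With the keratinocyte share in the fit the log2 changes were -0.89, -0.45 and -0.47 (adjusted p of 0.0471, 0.489 and 0.603). Over all 20 alternatives, left-out libraries included, the call was lost in 0 at 16 h, 15 at 1.5 d and 12 at 3 d.

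Sgms1 encodes the sphingomyelin synthase of the Golgi, the main source of sphingomyelin in most cells. It lies on chr19 from 32122727 to 32388512 (minus strand, 14 exons). Before wounding the libraries stood at 189, 296 and 249.6 CPM. The 16 h libraries stood at 117, 52.7 and 34.9 CPM, the 1.5 d libraries at 37.2, 42.0 and 35.5 CPM, and the 3 d libraries at 42.1, 67.6 and 59.0 CPM. All wound libraries were below all NW libraries, and the lowest NW library was 1.62 times the highest wound library, 16 h replicate 1. Sgms1 fell 3.59-fold at 16 h (log2 -1.85, SE 0.369, adjusted p = 0.00332), 6.40-fold at 1.5 d (log2 -2.68, SE 0.380, adjusted p = 4.30e-04) and 4.35-fold at 3 d (log2 -2.12, SE 0.372, adjusted p = 0.00179). The 3 calls were kept without each library. The 3 NW libraries and 16 h replicate 1, highest in Sgms1, were also the highest in keratinocyte share. The lowest library in Sgms1, 16 h replicate 3 at 34.9 CPM, had a share of 1.06%. The lowest in share, 3 d replicate 1 at 0.0879%, stood at 42.1 CPM. Shares were close in 16 h replicate 1 (1.49%, 117 CPM) and 3 d replicate 3 (1.44%, 59.0 CPM). The log2 changes of Sgms1 with that share in the fit were -1.54, -2.13 and -1.51 (adjusted p of 0.0156, 0.0145 and 0.141). The part of keratinocytes in the Sgms1 values was not tested.

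Sgms2, which encodes the synthase of the plasma membrane, showed no change that passed the test. It lies on chr3 from 131318986 to 131344923 (minus strand, 6 exons), and its mean was 54.3 ± 8.78 CPM in NW and 38.4 ± 11.6, 39.9 ± 3.13 and 49.1 ± 12.3 CPM in the wound groups (SD, n = 3). The 1.5 d libraries, at 37.2, 43.3 and 39.2 CPM, lay below the NW libraries at 45.7, 63.3 and 54.0 CPM, and the 16 h and 3 d libraries overlapped them. The 95% intervals of the log2 change were -1.06 to 0.06, -1.01 to 0.12 and -0.71 to 0.42. The ratio of Sgms1 to Sgms2 FPKM was 4.76 to 5.41 in the NW libraries, 1.50 to 2.69 at 16 h, 1.04 to 1.16 at 1.5 d and 0.891 to 1.95 at 3 d, and the wound values did not overlap the NW values.

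Sphingosine kinase 1 is the kinase known to be induced by growth factors and cytokines and to move to the plasma membrane. Sphk1 lies on chr11 from 116531100 to 116536675 (plus strand, 8 exons) and stood at 99.1, 84.0 and 78.0 CPM in NW, at 118, 92.6 and 77.8 CPM at 16 h, at 195, 80.9 and 106 CPM at 1.5 d, and at 97.2, 117 and 93.3 CPM at 3 d. Replicate 1 at 1.5 d was the highest of the 12 libraries, and all wound groups overlapped NW. No change against NW passed the test (log2 0.14, 0.55 and 0.24, adjusted p of 0.757, 0.187 and 0.61), and the interval at 1.5 d ran from -0.07 to 1.17.

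Sphk2, the kinase found in the nucleus, mitochondria and endoplasmic reticulum, was lower in wounds. It lies on chr7 from 45709463 to 45718002 (minus strand, 8 exons) and shares 12.95% of its exon length with Dbp, so fragments from that stretch were not counted for either gene. The NW libraries stood at 26.1, 27.8 and 42.7 CPM, the 16 h libraries at 18.4, 17.9 and 16.8 CPM, the 1.5 d libraries at 13.7, 12.7 and 15.1 CPM, and the 3 d libraries at 8.22, 18.2 and 13.1 CPM. All wound libraries were below all NW libraries. Sphk2 fell by 1.22 on the log2 scale at 1.5 d (SE 0.300, adjusted p = 0.0105) and by 1.29 at 3 d (SE 0.301, adjusted p = 0.00924); the value of -0.86 at 16 h did not pass (SE 0.298, adjusted p = 0.0504), although it passed under DESeq2, limma-voom, a stricter filter and a fit of the 2 groups alone (adjusted p of 0.0161 to 0.0458) and without 3 d replicates 1 or 2 (adjusted p of 0.039 to 0.0446). The call at 1.5 d was lost without NW replicate 3 (adjusted p = 0.0519). The library lowest in Sphk2, 3 d replicate 1, was also the lowest in keratinocyte markers. Within no group of 3 libraries did the order in Sphk2 match the order in keratinocyte share. At 1.5 d the order was reversed, with 12.7, 13.7 and 15.1 CPM at shares of 0.796, 0.606 and 0.454%. With the keratinocyte share in the fit the log2 changes were -0.56, -0.72 and -0.77 and none passed (adjusted p of 0.265, 0.311 and 0.39). The part of keratinocytes in the Sphk2 values was not tested. Sphk1 made up 78.6 ± 6.43% of the FPKM of the 2 kinases in NW and 87.9 ± 1.74%, 91.8 ± 2.89% and 91.5 ± 2.31% in the wound groups (SD, n = 3).

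Sgpl1 encodes S1P lyase, which cleaves S1P and so closes the pathway. It lies on chr10 from 61098642 to 61147684 (minus strand, 15 exons). The NW libraries stood at 113, 73.0 and 69.7 CPM, the 16 h libraries at 153, 176 and 111 CPM, the 1.5 d libraries at 104, 113 and 143 CPM, and the 3 d libraries at 153, 189.8 and 149 CPM. The 3 d libraries were all above the NW libraries, and the other wound groups overlapped them through NW replicate 1. Sgpl1 rose 1.72-fold at 16 h (log2 0.78, SE 0.244, adjusted p = 0.0323) and 1.92-fold at 3 d (log2 0.94, SE 0.245, adjusted p = 0.0158), and the value of 0.49 at 1.5 d did not pass (adjusted p = 0.161; 0.0462 without NW replicate 1). The call at 16 h was lost without NW replicates 2 or 3 or 16 h replicates 1 or 2 (adjusted p of 0.0828 to 0.136), and the call at 3 d without NW replicates 2 or 3 or 3 d replicate 2 (adjusted p of 0.0558 to 0.071). It was also lost at 16 h with the replicate block or a fit of the 2 groups alone (adjusted p of 0.0577 at the lowest), and at both times with the keratinocyte share in the fit (adjusted p of 0.106 and 0.237).

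**Figure D2:**
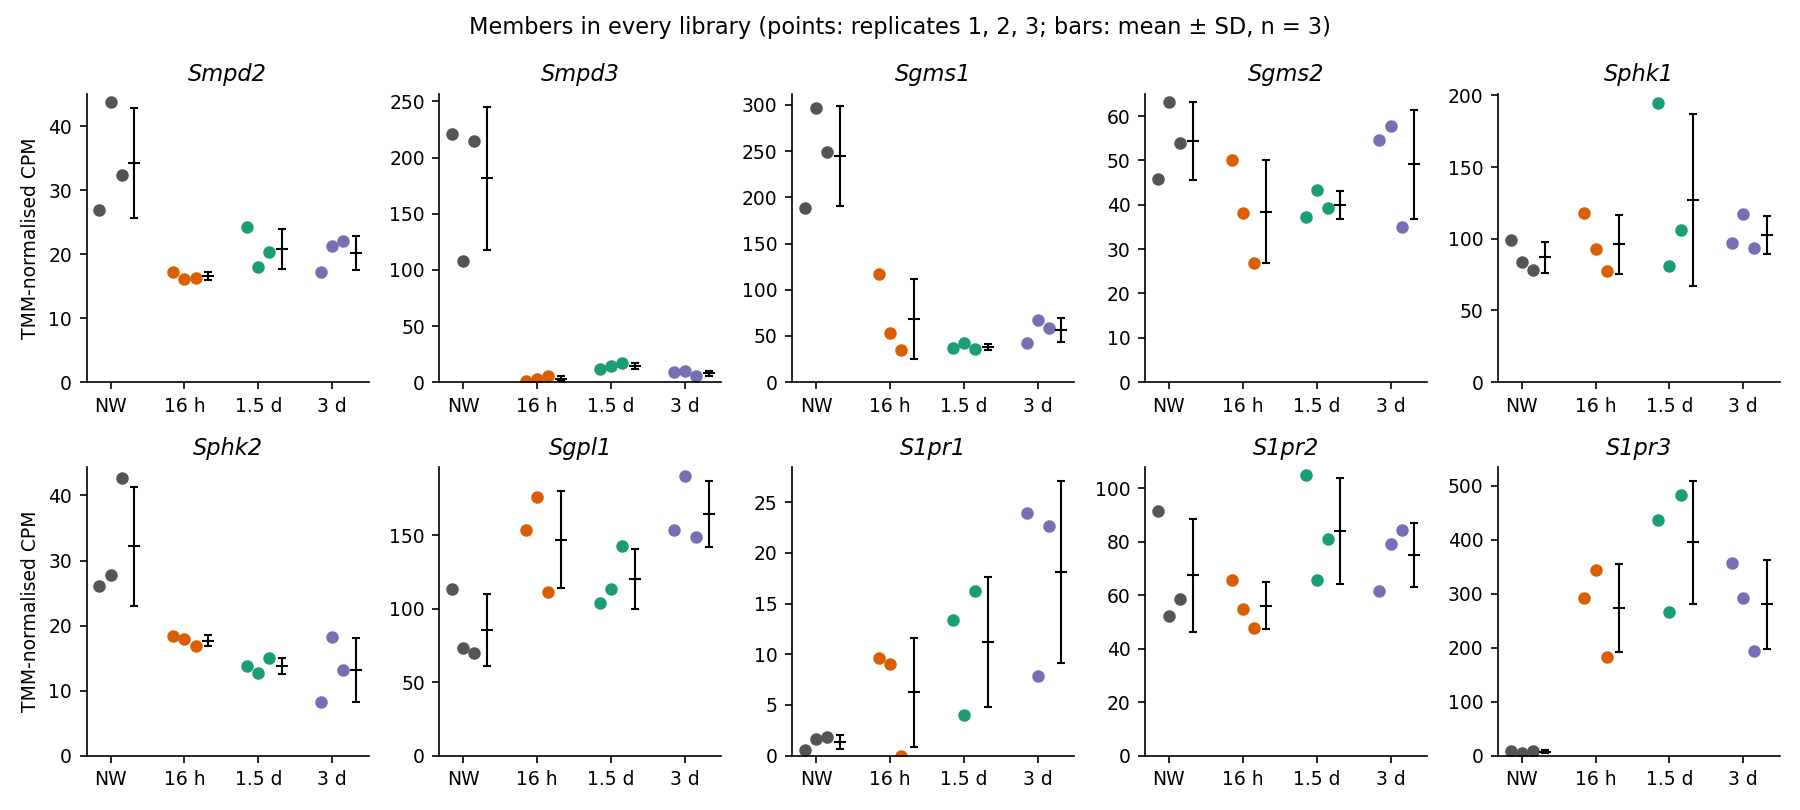
Level of each of the 10 genes in TMM-normalised CPM (vertical axis, its own scale in each panel) in NW and at 16 h, 1.5 d and 3 d; points are replicates 1, 2 and 3 from left to right and bars are the mean ± SD. The wound points lie above all NW points for S1pr3 and below all of them for Smpd3, Smpd2, Sgms1 and Sphk2.

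Over the 9 genes other than Smpd3, 4 were called at 16 h (2 rose and 2 fell), 4 at 1.5 d (1 rose and 3 fell) and 6 at 3 d (3 rose and 3 fell). The share of all tested genes called in the same comparisons was 24.7% (13.5% rose and 11.2% fell), 24.5% (13.7% and 10.8%) and 21.1% (12% and 9.15%). Their median log2 change was -0.27, 0.31 and 0.15, beside -0.04, 0.01 and 0.00 over all genes tested. The count at 1.5 d was 2 without NW replicate 3, and the count at 3 d was 3 without NW replicate 2 and also without NW replicate 3. Their NW and wound libraries did not overlap for 4 genes at 16 h, 6 at 1.5 d and 6 at 3 d, where 41.3%, 40.7% and 40.3% of all genes tested had groups that did not overlap. In the test of any difference among the 4 groups, 5 of the 9 were called (Smpd2, Sgms1, Sphk2, Sgpl1 and S1pr3, with adjusted p from 2.23e-05 for S1pr3 to 0.0406 for Sgpl1), beside 29.7% of all genes, and 3 without NW replicate 2, NW replicate 3 or 16 h replicate 2. The 3 comparisons with NW share the NW libraries. The 9 genes were chosen with earlier results of these data known, so their counts beside the shares of all genes are a description only.

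**Figure D3:**
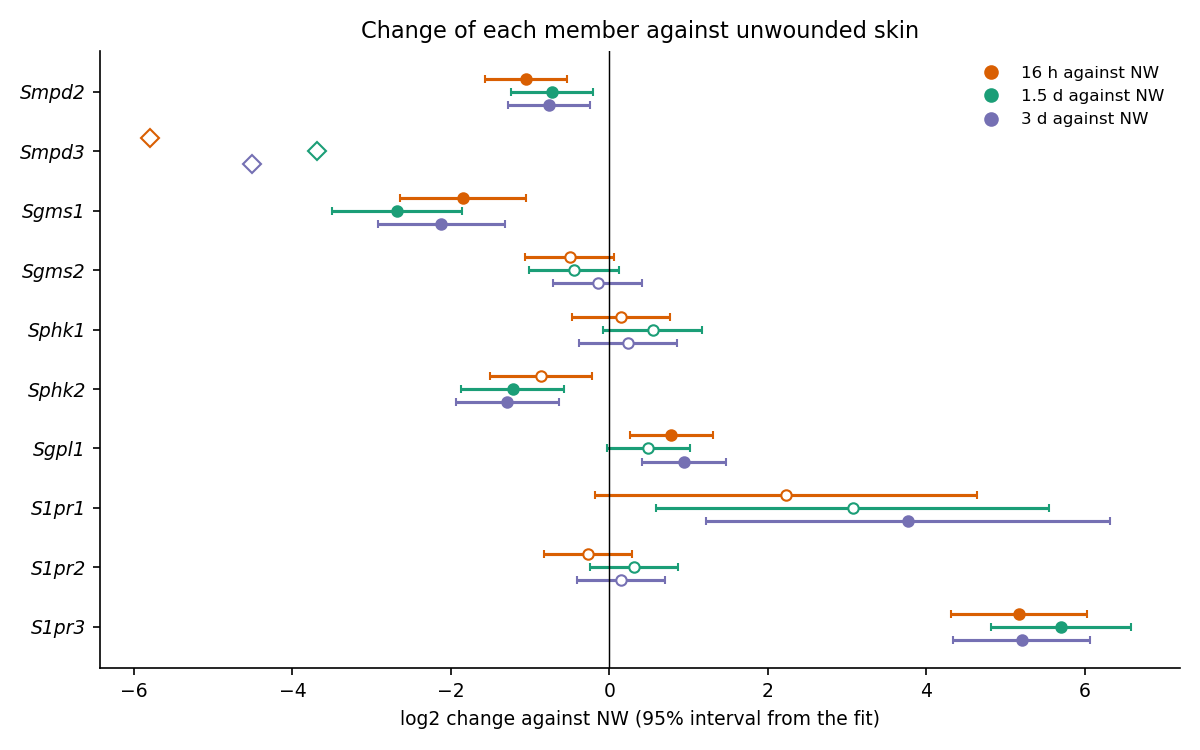
Log2 change of each gene against NW (horizontal axis) at 16 h, 1.5 d and 3 d with the 95% interval from the fit; filled points have an adjusted p under 0.05, and the open diamonds of Smpd3 carry no test because the gene was chosen on these changes. S1pr3 lies between 5.17 and 5.70, and the points of S1pr2, Sgms2 and Sphk1 are all open.

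Between wound times, edgeR called 0 of these 9 genes in each of the 3 comparisons, as did DESeq2 and limma-voom. The shares of all genes called were 2.86% from 16 h to 1.5 d, 0.141% from 1.5 d to 3 d and 9.53% from 16 h to 3 d. At an unadjusted p under 0.05 there were 2 (Sgms1, log2 -0.83, and S1pr2, log2 0.58), 0 and 0.

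Ranked by FPKM in NW, Sgms1 stood first (48.8 ± 10.8), followed by Smpd3 (35.4 ± 12.4), Sphk1 (28.5 ± 3.55), S1pr2 (24.0 ± 7.50), Smpd2 (21.4 ± 5.35), Sgpl1 (20.6 ± 5.88), Sgms2 (9.38 ± 1.52), Sphk2 (7.73 ± 2.19), S1pr3 (1.69 ± 0.571) and S1pr1 (0.437 ± 0.228). Each of the first 6 overlapped its neighbour in that order, as did Sgms2 and Sphk2, whereas the library ranges of Sgpl1 and Sgms2, Sphk2 and S1pr3, and S1pr3 and S1pr1 did not overlap. In each wound group S1pr3 stood first (61.0 ± 18.3, 88.0 ± 25.5 and 62.5 ± 18.3 FPKM) and Smpd3 last (0.633 ± 0.414, 2.75 ± 0.539 and 1.55 ± 0.466 FPKM). The S1pr3 range overlapped that of the gene ranked next, Sgpl1 at 16 h and 3 d and Sphk1 at 1.5 d. The Smpd3 range overlapped that of the gene ranked just above it at 16 h (S1pr1) and 1.5 d (Sphk2), and not at 3 d (Sphk2). Smpd3 was chosen for its fall, so its last place is a description only. Among the 19745 genes with any count, S1pr3 was above 48.3% in NW and above 94.0%, 95.7% and 94.2% in the wound groups.

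The rest of the pathway was taken as 51 genes in 5 lists, of which 46 were tested and Cers1, Enpp7, Ugt8a, Apom and S1pr4 were not. Cers1 shares 100% of its exon length with Gdf1 and Upf1, so its fragments could not be counted and its level is unknown. At 16 h 6 rose and 8 fell, at 1.5 d 8 rose and 13 fell, and at 3 d 4 rose and 12 fell. The share called was 30.4%, 45.7% and 34.8%, beside 24.7%, 24.5% and 21.1% of all genes tested. Their median log2 changes were -0.25, -0.05 and -0.21, beside -0.04, 0.01 and 0.00 over all genes. These lists too were chosen with earlier results of these data known, so the shares called are a description only. The totals called were 9 without 16 h replicate 2 at 16 h, 13 without NW replicate 3 at 1.5 d and 9 without 3 d replicate 1 at 3 d. With the keratinocyte share in the fit, 5 were called at 1.5 d and 3 at 3 d; of the calls above, those of Sptssb, Smpdl3a, Acer1, B4galt5 and Gltp at 1.5 d and of Acer3, B4galt5 and Plpp3 at 3 d were kept.

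Of the 16 ceramide synthesis genes tested, 2 rose and 3 fell at 16 h and at 1.5 d, and 4 fell at 3 d, that is 31.2%, 31.2% and 25% called, beside the 24.7%, 24.5% and 21.1% of all genes. Sptssa, a small subunit of serine palmitoyltransferase, went from 101 CPM in NW to 35.9, 34.0 and 41.4 CPM (log2 -1.50, -1.58 and -1.29, adjusted p of 0.00167, 0.0013 and 0.00445). Ormdl3, which restrains that enzyme, fell from 79.4 to 36.9, 49.0 and 51.3 CPM (adjusted p of 0.00156, 0.0192 and 0.0343). Sptlc3, the catalytic subunit known from skin epidermis, fell from 42.9 to 6.34, 1.37 and 2.07 CPM, calls that ended with the keratinocyte share in the fit (adjusted p of 0.119, 0.0703 and 0.138). Sptlc1 stood at 31.7 CPM in NW and 36.2 CPM at 16 h and was not called. Cers2, the ceramide synthase for very long acyl chains, rose from 102 to 211.5 CPM at 16 h and 195 CPM at 1.5 d (log2 1.05 and 0.93, adjusted p of 0.00313 and 0.00602). Sptssb had no count in the NW libraries, which allows up to 0.0987 to 0.114 CPM in each, and reached 2.13 CPM at 16 h and 5.89 CPM at 1.5 d, both called. The 1.5 d libraries stood at 7.86, 1.01 and 8.79 CPM. At 3 d the libraries had 3, 2 and 0 counts of Sptssb, and it was not called. Ormdl3 lost its call at 1.5 d without NW replicates 1 or 3 or 1.5 d replicates 1 or 2 (adjusted p of 0.0504 to 0.0872). Ormdl3 lost its call at 3 d without NW replicates 1 or 3 or 16 h replicate 2 or 3 d replicates 1, 2 or 3 (adjusted p of 0.0541 to 0.134). Sptlc3 lost its call at 16 h without NW replicates 2 or 3 or 16 h replicates 2 or 3 (adjusted p of 0.0506 to 0.0802).

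Of the 13 genes of sphingomyelin and ceramide breakdown tested, 1 rose and 3 fell at 16 h, 2 rose and 5 fell at 1.5 d, and 1 rose and 3 fell at 3 d. The share called was 30.8%, 53.8% and 30.8%, again beside 24.7%, 24.5% and 21.1% of all genes. Smpdl3a, a phosphodiesterase related to acid sphingomyelinase, fell from 62.5 CPM to 13.9, 15.3 and 28.0 CPM (log2 -2.17, -2.03 and -1.16, adjusted p of 5.12e-04, 8.27e-04 and 0.0189). The ceramidase genes Acer3 and Acer1 fell as well, Acer3 from 56.2 to 32.6, 32.8 and 24.9 CPM (adjusted p of 0.0147, 0.0151 and 0.00186) and Acer1 from 28.8 CPM to 0.904 CPM at 1.5 d and 3.34 CPM at 3 d (adjusted p of 0.00257 and 0.0226). Smpd4, a neutral sphingomyelinase, rose from 14.4 to 24.9 and 24.6 CPM at 16 h and 1.5 d (adjusted p of 0.0355 and 0.0389). The lysosomal genes Smpd1 and Asah1 were not called against NW. Smpd1, acid sphingomyelinase, rose from 38.2 CPM at 16 h to 80.8 CPM at 1.5 d (log2 1.08, SE 0.250, adjusted p = 0.0378). The pathway genes called between these times, Smpd1 and Plpp1, went from 2 to 0 without any 1 of NW replicate 3, 16 h replicates 1, 2 and 3 and 1.5 d replicates 1 and 3, in a fit of the 2 groups alone and with the replicate block, and to 1 without NW replicate 1, 1.5 d replicate 2 or 3 d replicates 1 or 2. Smpdl3a lost its call at 3 d without NW replicate 1 or 3 d replicate 1 (adjusted p of 0.0544 to 0.0783). Acer3 lost its call at 16 h without NW replicate 2 or 16 h replicate 2 (adjusted p of 0.0533 to 0.0583). Acer3 lost its call at 1.5 d without NW replicate 2 or 1.5 d replicate 2 (adjusted p of 0.0627 to 0.0636). Acer1 lost its call at 3 d without NW replicates 2 or 3 or 3 d replicates 1 or 2 (adjusted p of 0.0522 to 0.0759). Smpd4 lost its call at 16 h without NW replicates 1 or 2 or 16 h replicates 1 or 2 (adjusted p of 0.0615 to 0.114). Smpd4 lost its call at 1.5 d without NW replicates 1 or 2 or 16 h replicate 2 or 1.5 d replicates 1, 2 or 3 (adjusted p of 0.0535 to 0.111).

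Of the 8 tested genes of complex sphingolipid synthesis and lipid transfer, 2 rose and 2 fell at 16 h, 3 rose and 4 fell at 1.5 d, and 3 rose and 3 fell at 3 d. The share called was 50%, 87.5% and 75%, beside 24.7%, 24.5% and 21.1% of all genes. Ugcg, glucosylceramide synthase, went from 96.2 CPM to 296, 254 and 281 CPM (log2 1.62, 1.40 and 1.55, adjusted p of 0.00673, 0.0138 and 0.00984), and B4galt5, lactosylceramide synthase, from 16.97 CPM to 119.8, 140.5 and 109 CPM (log2 2.82, 3.05 and 2.69, adjusted p of 1.27e-04, 8.33e-05 and 1.73e-04). B4galt5 was called in every alternative fit and without each library. Its relative B4galt6 rose from 0.479 CPM to 4.57 CPM at 1.5 d and 7.92 CPM at 3 d (adjusted p of 0.0132 and 0.00552), the first call being lost in a fit of the 2 groups alone (adjusted p = 0.0585). St3gal5, the sialyltransferase for ganglioside GM3, fell at 16 h from 9.23 to 2.17 CPM (adjusted p = 0.0141) and stood at 8.36 CPM at 3 d. Gltp, a glycolipid transfer protein, fell from 423 CPM to 128, 102 and 121 CPM (adjusted p of 0.00201, 7.50e-04 and 0.00182). Samd8, an enzyme that makes an analogue of sphingomyelin from ceramide, fell from 38.1 to 16.98 and 13.4 CPM at 1.5 d and 3 d (adjusted p of 0.00516 and 0.00138). Ugcg lost its call at 1.5 d without NW replicate 3 (adjusted p = 0.0507). St3gal5 lost its call at 16 h without NW replicate 3 (adjusted p = 0.0546).

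Of the 8 tested genes of S1P turnover and transport, 12.5% were called at 16 h and at 1.5 d and 25% at 3 d, beside the 24.7%, 24.5% and 21.1% of all genes. Abcc1 rose at 16 h from 77.9 to 132 CPM (adjusted p = 0.0493), Plpp1 rose at 1.5 d from 124 to 213 CPM (adjusted p = 0.0251), and Plpp3 and Plpp2 fell at 3 d. Plpp3, a phosphatase that removes extracellular S1P and lysophosphatidic acid, stood at 1431 ± 190.4 CPM in NW, and the wound groups in order of time stood at 1351 ± 276, 1231 ± 226 and 679.9 ± 103 CPM (SD, n = 3). Its fall at 3 d (log2 -1.07, SE 0.229, adjusted p = 0.00545) was called in every alternative fit and without each library. Plpp2 fell at 3 d from 27.3 to 12.2 CPM (adjusted p = 0.0297). Abcc1 lost its call at 16 h without NW replicates 1 or 2 or 16 h replicates 1, 2 or 3 or 1.5 d replicates 1 or 2 or 3 d replicates 1 or 3 (adjusted p of 0.0509 to 0.157). Plpp1 lost its call at 1.5 d without NW replicates 2 or 3 or 1.5 d replicate 1 (adjusted p of 0.0657 to 0.103). Plpp2 lost its call at 3 d without NW replicates 2 or 3 or 3 d replicates 1 or 2 (adjusted p of 0.0688 to 0.121). Spns2, the S1P exporter, had a mean of 0.772 CPM in NW and of at most 0.591 CPM in the wound groups. Its libraries spanned 0 to 1.69 CPM in NW and 0 to 1.10 CPM in wounds. It was not called against NW, nor in the F test of any difference (adjusted p = 0.961).

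**Figure D4:**
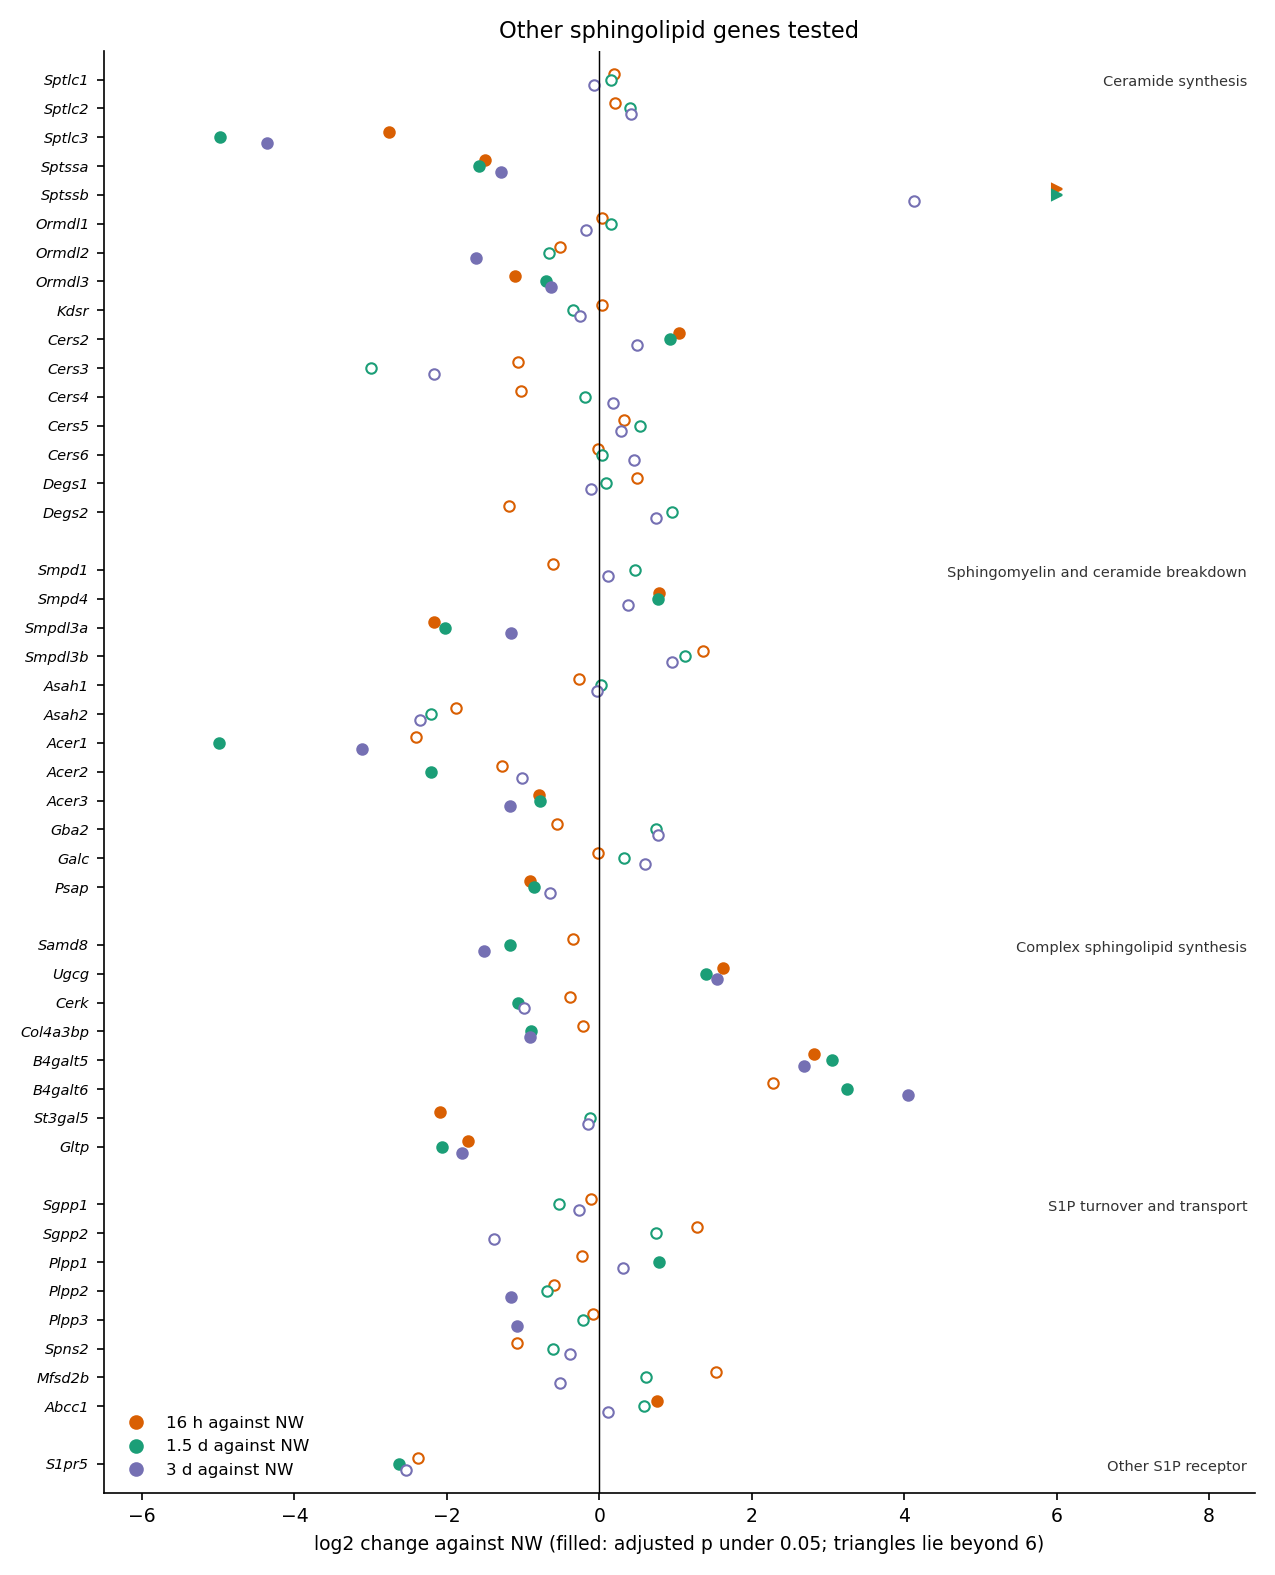
Log2 change against NW (horizontal axis) of pathway genes tested, in 5 groups from top to bottom, at 16 h, 1.5 d and 3 d; filled points have an adjusted p under 0.05, and triangles at 6 mark Sptssb, whose fitted values at 16 h and 1.5 d are higher and rest on no count in NW. B4galt5 stands between 2.69 and 3.05 at all 3 times, and Sptlc3 and Acer1 reach -4.98 at 1.5 d.

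Keratinocyte markers moved with several of these genes. Of the 16 markers, 1 rose and 5 fell at 16 h, 1 rose and 11 fell at 1.5 d, and 1 rose and 9 fell at 3 d, the riser being Krt6a, a keratin induced in wounds. The share called was 37.5%, 75% and 62.5%, beside 24.7%, 24.5% and 21.1% of all genes tested. Krt15 fell from 5232 CPM to 337, 127 and 136 CPM, and Krt14 stood at 7065 CPM in NW and 4351, 2953 and 3637 CPM in wounds. The share of these markers did not overlap between NW and wounds (at least 2.00% against at most 1.49%), so the share and wounding are largely the same split of the libraries. With the share in the fit, S1pr3 was called at each of the 3 times, Sgms1 at 16 h and 1.5 d and Smpd2 at 16 h, and no other of the 9 genes was called.

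**Figure D5:**
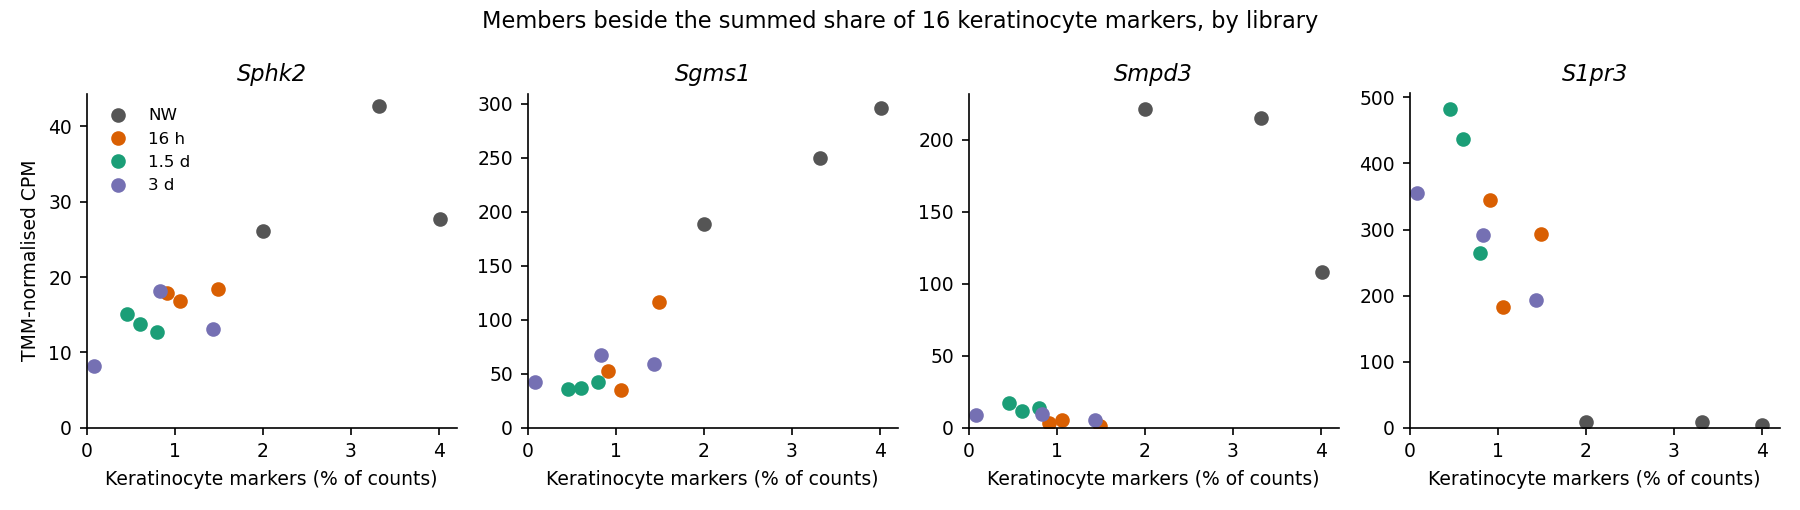
Level of Sphk2, Sgms1, Smpd3 and S1pr3 (vertical axis, TMM-normalised CPM) against the summed share of 16 keratinocyte markers (horizontal axis, % of counts) in the 12 libraries, coloured by group. Within the wound libraries S1pr3 spans 183 to 482 CPM at shares of 0.0879 to 1.49%, and the 3 NW libraries lie apart at the right.

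The genes whose log2 CPM followed a member most closely over the 12 libraries were taken by Pearson r among 7700 genes; since the libraries form 4 groups, r mostly reflects the group means. For S1pr3 they were Rtn4rl2 (r = 0.996), Bcat1 (0.993) and Apln (0.991), with Apln at 1.02 CPM in NW and 36.2, 55.9 and 39.6 CPM in wounds. For Smpd3 they included Osr2 (0.941), Anxa3 (0.938), Phactr2 (0.936) and Aldh2 (0.935), with Osr2 at 187 CPM in NW and 68.5, 86.9 and 69.2 CPM in wounds. For Sgms1 they included Ppfibp2 (0.974) and Wee1 (0.967). For Sphk2 they were Krt77 (0.986), Fry (0.951) and Mreg (0.947), and Krt77, an epidermal keratin, stood at 420.1 CPM in NW and 37.3, 16.5 and 15.8 CPM in wounds. For Smpd2 they were Bok (0.951), Ctdspl (0.942) and Gadd45a (0.939), and for Sgpl1 Tubgcp4 (0.923), Stam2 (0.921) and Dgkh (0.920).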

How the data were processed

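Per the file headers, the authors used featureCounts 2.0.0 to count read pairs on refGene exons (mm10), and the deposited values are raw counts per gene symbol. That header sets no option for strand, multi-mapping or overlaps, so fragments over exons of more than 1 gene were not counted. STAR, SAMtools, Subread and Partek are named in the submitters' processing notes without versions. Full-length cDNA from sorted cells was sequenced as paired ends, per the labels' protocols.

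All 12 libraries were fitted by group with edgeR 4.0.16 (R 4.3.3) after filterByExpr and TMM scaling, with robust quasi-likelihood tests of the 6 pairwise comparisons and an F test of any difference. The Benjamini-Hochberg adjustment ran over all 14901 genes. Standard errors are the change over the square root of F. FPKM were computed from TMM CPM and the deposited exon length. Alternatives were DESeq2 1.42.0, limma-voom (limma 3.58.1), total-count scaling, other filters, 2 groups alone, the log2 keratinocyte share as a covariate, a replicate block, and each library left out; scripts were tested on simulated data.

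The members and lists were chosen with earlier results of these data known. Named are all members, at least the 2 pathway genes of smallest p per list and direction called against NW, and the genes of highest r (log2 CPM with a prior count of 2, at least 20 CPM in their highest group); some genes that this rule names are not reported here. Promoter windows were matched by symbol to RefSeq (GRCm38.p6) for 8 of the 10 members; none was used for Smpd3 and S1pr1. At these depths 3 counts stand for 0.0664 to 0.122 CPM in a library, a limit that covers counting error only. Each library comes from a separate mouse. Within groups, log2 CPM of libraries correlated at 0.916 to 0.956.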

Additional observations from a re-analysis of the deposited data

How the results depend on the processing

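Of 1080 values of the 9 genes other than Smpd3 under alternatives, 996 kept their direction and side of the threshold, 51 lost and 10 gained a call and 23 changed sign, none of these in a called comparison. S1pr3 was called against NW in every alternative (log2 4.57 to 5.93). For the 58 calls of other genes against NW, 29 were kept without each library, 39 were ended by the keratinocyte covariate and 17 were kept everywhere. With that covariate the 9 genes had 2 calls at 1.5 d, 1 at 3 d and 2 in the test of any difference. Pathway genes then had 5, 3 and 8, with 0 from 16 h to 1.5 d and 1 from 16 h to 3 d. All genes had 2136, 776 and 558 against NW, 266 from 16 h to 1.5 d, 39 from 1.5 d to 3 d and 1949 in the test of any difference. The cause was not tested.

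From 16 h to 1.5 d, from 1.5 d to 3 d and from 16 h to 3 d, DESeq2 called 7, 2 and 8 pathway genes and 1192, 200 and 2352 genes in all, against 2, 0 and 4 and 426, 21 and 1420 in edgeR. From 1.5 d to 3 d, total-count scaling called 51 genes, no filter 51 (1 of the pathway) and limma-voom 74; limma-voom called 2 pathway genes from 16 h to 3 d, and the 2 groups alone called 0 from 16 h to 1.5 d. Total-count scaling moved the median gene by -0.116 (3 d against NW) and -0.169 (3 d against 16 h).

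The replicate numbers did not pair the libraries: 2 of 18 same-numbered pairs had deviations that correlated over 0.1, and 3 of 12 libraries correlated best with their own number. The replicate block called 0 pathway genes and 211 genes in all from 16 h to 1.5 d, and 2 pathway genes from 16 h to 3 d.

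Without 1 library, calls among the 9 genes ranged from 3 to 5 at 16 h, 2 to 5 at 1.5 d, 3 to 6 at 3 d and 3 to 6 for any difference, and were 0 between wound times. Pathway calls ranged from 9 to 15, 13 to 22, 9 to 17 and 15 to 20, and from 0 to 2, 0 to 0 and 2 to 5 between wound times. All calls ranged from 2249 to 3773, 2392 to 3802, 1826 to 3269 and 3348 to 4323, and from 147 to 433 (16 h to 1.5 d), 2 to 29 (1.5 d to 3 d) and 726 to 1515 (16 h to 3 d).

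Signs changed only in comparisons that were not called. For S1pr1 at 16 h limma-voom gave -0.013. From 16 h to 3 d, total-count scaling gave -0.071 for Sphk1, -0.011 for Sgpl1 and -0.15 for S1pr3, and the covariate gave 0.028 for Sgms1 and -0.29 for S1pr3. Without 1 library, log2 ranges against NW were -0.029 to 0.29 (Sphk1, 16 h), -0.42 to 0.062 (S1pr2, 16 h) and -0.24 to 0.054 (Sgms2, 3 d). From 16 h to 1.5 d they were -0.14 to 0.30 (Sgms2) and -0.039 to 0.65 (Sphk1), from 1.5 d to 3 d -0.14 to 0.078 (Smpd2), -0.55 to 0.14 (Sphk1), -0.36 to 0.16 (Sphk2) and -0.31 to 0.033 (S1pr2), and from 16 h to 3 d -0.59 to 0.36 (Sgms1), -0.035 to 0.27 (Sphk1), -0.0025 to 0.31 (Sgpl1) and -0.21 to 0.25 (S1pr3).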

Other observations

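Of 7 tested genes for G proteins through which S1P receptors signal, 1 was called at 1.5 d and at 3 d (14.3%), beside 24.5% and 21.1% of all genes. Gnai1 fell at 1.5 d and 3 d, from 96.4 ± 18.8 CPM in NW to 36.1 ± 7.48 and 37.6 ± 11.2 CPM (SD, n = 3; log2 -1.42 and -1.36, adjusted p of 0.00853 and 0.0122), and its mean at 16 h was 50.9 ± 22.5 CPM (adjusted p = 0.0586). The call at 3 d was lost without 3 d replicate 1 (adjusted p = 0.0664), and both calls with the keratinocyte share in the fit (adjusted p of 0.257 and 0.464). Gna13, which couples to S1pr2 and S1pr3, stood at 149 ± 31.8 CPM in NW and 183 ± 44.7, 130.1 ± 24.2 and 168 ± 38.9 CPM in wounds.

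Of 7 genes of the related lipid mediator lysophosphatidic acid, Enpp2, which encodes the enzyme autotaxin that makes it, fell from 65.8 to 17.4 CPM at 16 h (log2 -1.92, SE 0.341, adjusted p = 0.00164) and to 26.1 CPM at 1.5 d (adjusted p = 0.0116; 0.0544 without 1.5 d replicate 3), with 38.3 CPM at 3 d. Lpar5 fell from 37.3 to 7.00, 4.18 and 5.23 CPM, calls that ended with the keratinocyte share in the fit (adjusted p of 0.219, 0.465 and 0.681). The call was also lost at 16 h without each of NW replicates 1, 2 and 3 and 16 h replicates 2 and 3, at 1.5 d without 1.5 d replicate 3, and at 3 d without NW replicate 2 or 3 d replicate 3. Lpar1, the receptor known from fibroblasts, stood at 317 ± 125 CPM in NW and 242 ± 51.2, 267 ± 50.9 and 212 ± 59.4 CPM in wounds, with overlapping libraries. The difference in response between these genes and S1pr3 was not tested.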
